A study of Rattus norvegicus with 8 samples.

Results

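The 10 genes described here are known in the retina from Müller glia, the radial glial cells that span its whole depth, and from astrocytes of the nerve fibre layer. They are Rlbp1, Glul, Gfap, Slc1a3, Slc1a2, Aqp4, Vim, Dkk3, Kcnj10 and Sox9. They were taken by name: every probe whose single gene symbol in the platform's probe table was one of these names was used, which gave 19 probes among 41048 on the array and 10 genes among 14802. All 10 were measured on all 8 arrays, and none of their values was at the end of the ratio scale or exactly 0.

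Müller glia take up the glutamate that neurons release, turn it into glutamine, carry potassium and water away from active synapses, and hand retinoids back to cones. After injury, Müller glia and astrocytes make more of the intermediate filament protein GFAP, so its gene is widely used as a sign of gliosis. In a preparation of sorted ganglion cells these genes are markers of another cell type, whose RNA can come along as attached cells or fragments.

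The samples were retinal ganglion cells of Rattus norvegicus that carried the retrograde tracer 4DI-10ASP. They were taken from fresh retinas and sorted by fluorescence into large and small cells, and actinomycin D, an inhibitor of transcription, was present for both. RNA went through a pair of amplification rounds, and every one of the 8 arrays set large-cell RNA, labelled Cy5 in the sample records, against small-cell RNA, labelled Cy3. The labels name no strain, age or sex. The 8 arrays form 1 group, named by the number in their titles (39, 40, 41, 42, 43, 69, 70 and 71), and the labels mention 2 technical subreplicates per biological replicate without saying which arrays belong together.

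Each value is a log2 ratio of the 2 channels, so it gives a difference between the channels and no level of a gene in either. Which channel is the numerator is not stated. Values are therefore called positive or negative, and a positive value means more in large cells only if the ratio runs from the first listed channel to the second. In bulk RNA of this kind, a larger share of glial cells in a fraction and more glial RNA per cell cannot be told apart.

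The arrays fell into sets of 4 by their correlation over the probes of all other genes. Arrays 39, 41, 43 and 70 (set 1) and arrays 40, 42, 69 and 71 (set 2) correlated from 0.22 to 0.68 within a set. Between the sets, 15 of 16 pairs had a negative Pearson correlation, and 2 pairs lay under -0.3, the lowest at -0.32. A dye swap is mentioned for the series, while the labels list the dyes alike on all arrays, so the direction of the ratio is not settled within the series either. The 10 genes are therefore given as deposited and with the signs of set 2 turned. For the gene lists, medians and list means are as deposited, and the turned reading is given as counts of called genes. A ratio that keeps its side on every array shows in the first reading, and one that changes side with the set shows in the second. If the arrays of set 2 were dye-swapped and left unturned, a ratio that keeps its side would follow the dye and not the fraction. If they were swapped and already turned before deposit, a ratio that changes side with the set would follow the dye instead. Which reading holds was not tested. The sets were read from the data and are not groups of the study.

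As deposited, 1 of the 10 glial genes passed the test. It was Rlbp1, which encodes the cellular retinaldehyde-binding protein that carries 11-cis retinoids in Müller glia and pigment epithelium. Over all 14801 genes tested, 324 were called by limma at an adjusted p under 0.05, which is 2.19%, with 84 on the positive side (0.568%) and 240 on the negative side (1.62%). The median mean ratio was 0.04 over the 10 glial genes and -0.01 over all genes tested. The other 9 did not pass, and 5 of the 10 had a mean within 0.1 of 0.

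**Figure D1:**
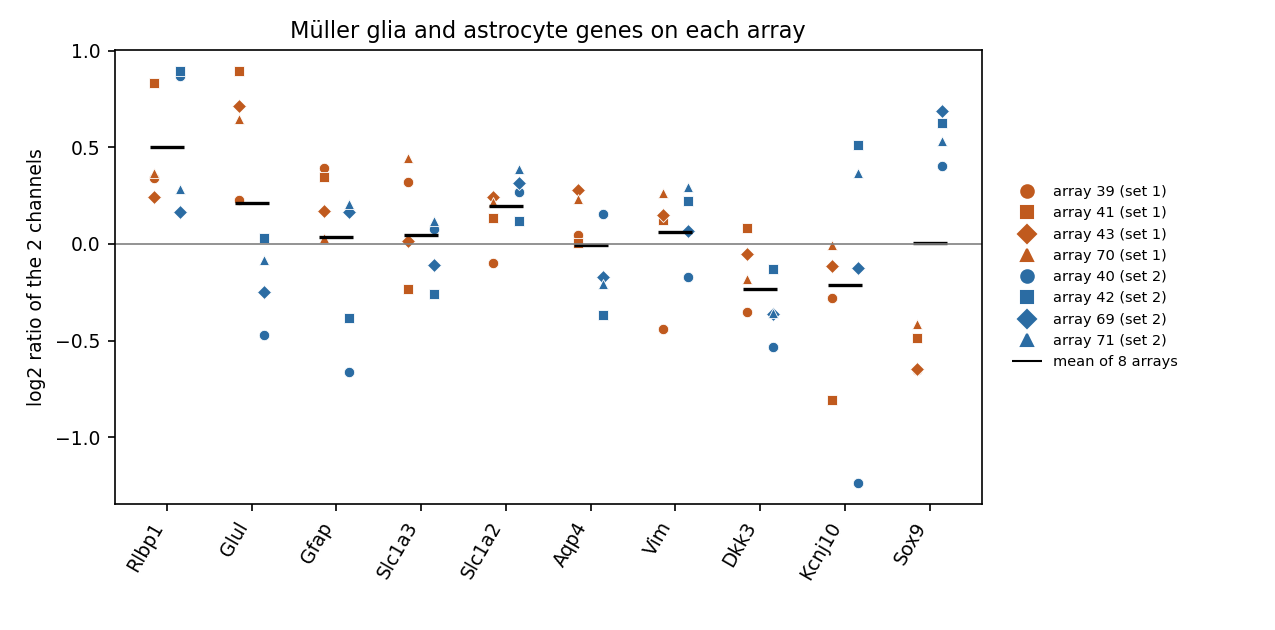
Log2 ratio of the 2 channels for each of the 10 glial genes (gene value: mean of its probes). Points are single arrays, orange for set 1 and blue for set 2, and the black bar is the mean of 8 arrays. Rlbp1 lies above 0 on all 8 arrays, and Sox9 lies below 0 on the arrays of set 1 and above 0 on those of set 2.

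The Rlbp1 ratio was 0.34 on array 39, 0.87 on 40, 0.83 on 41, 0.89 on 42, 0.24 on 43, 0.17 on 69, 0.37 on 70 and 0.29 on 71. It was positive on every array, and arrays 40, 41 and 42 stood well above the other 5. Its mean was 0.50 ± 0.31 (SD, n = 8 arrays), a 1.41-fold difference, with a limma 95% interval from 0.27 to 0.73 and an adjusted p of 0.0364. Of all genes with 8 values, 1.56% were positive and 2.88% negative on 8 of 8 arrays. Among called genes, 36 on the positive side had a mean at or above that of Rlbp1, itself included.

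The call rested on most of the arrays together. It was lost when any 1 array other than 69 was left out, with means from 0.44 to 0.55 and adjusted p from 0.0472 to 0.0938 over the 8 fits. Without arrays 41 and 42 the mean was 0.38 (adjusted p = 0.186), and over averages of neighbouring arrays the adjusted p was 0.165. Neighbouring means paired in the order of the array numbers: 39 with 40, 41 with 42, 43 with 69 and 70 with 71. Arrays 43 and 69 were paired although their numbers are not adjacent. Each of these pairs joins an array of set 1 with an array of set 2. A ratio that changes side with the set would in part cancel in such averages. Limma on these averages called 0 of all genes tested. The exact sign-flip permutation over 8 arrays gave the smallest p it allows, 0.00781, which became 0.177 after adjustment over all genes.

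The sets did not differ in direction for Rlbp1. Its mean was 0.45 ± 0.26 in set 1 and 0.55 ± 0.38 in set 2 (SD, n = 4 arrays each), and their values overlapped. With the signs of set 2 turned it therefore lay near 0, at -0.054 with a 95% interval from -0.48 to 0.37 (adjusted p = 0.86). Rlbp1 was measured by 1 probe.

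The stretch before the Rlbp1 start is shown because Rlbp1 is the called gene. SOX proteins, of which Sox9 is one of the 10 genes, bind short elements around the letters ACAAAG or ACAATG. The 250 bases before the annotated start were taken from RefSeq (GRCr8, chr1:142731622-142731871, minus strand) and are written 5′ to 3′ as the gene reads, with ACAAAG or its reverse complement CTTTGT in capitals.
Rlbp1: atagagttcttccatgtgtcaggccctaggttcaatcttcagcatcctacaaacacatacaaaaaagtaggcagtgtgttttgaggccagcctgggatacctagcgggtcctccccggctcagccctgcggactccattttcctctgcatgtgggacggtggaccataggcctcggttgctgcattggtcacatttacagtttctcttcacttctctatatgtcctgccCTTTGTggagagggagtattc
One CTTTGT lies in this window, and ACAATG or CATTGT does not occur in it. ACAAAG was found on either strand in 16.3% of 33469 such windows of all genes and in 6 of 13 windows of the 8 glial genes that had one, belonging to 4 genes. Windows of 1 gene overlap where its starts lie close together, as do those of Slc1a3, so the 6 are not separate cases. ACAATG was found in 11.1% of all windows and in 0 of the 13. The match is a description of letters and not of binding.

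Enzymes and binding proteins of the retinoid cycle were read beside Rlbp1. Of 21 measured genes of this list, 1 was called on the positive side and 0 on the negative side, with a median mean ratio of 0.0044. The called gene was Rdh12, a retinol dehydrogenase of photoreceptor inner segments, at 0.45 ± 0.12 (SD, n = 8, adjusted p = 0.00921), positive on 8 of 8 arrays. Its 2 probes had means of 0.31 and 0.58, and neither was called singly. The Rdh12 call was kept without any 1 array (adjusted p from 0.0145 to 0.0363) and lost without arrays 41 and 42 (0.061) and over averages of neighbouring arrays (0.0941). Arrays paired in the order of their numbers were close for Rdh12, at 0.41 and 0.44, 0.60 and 0.63, 0.30 and 0.30, and 0.48 and 0.40. A fit without 1 array may thus keep a technical subreplicate of it, though the labels do not say that these pairs are subreplicates. For Rlbp1 the same pairs stood at 0.34 and 0.87, 0.83 and 0.89, 0.24 and 0.17, and 0.37 and 0.29. Of the 12 named genes called as deposited, Rlbp1 and Rdh12 included, 0 were called by limma on averages of these pairs (adjusted p from 0.0933 to 0.181). Of all genes tested, 0 were called there too, so the count does not set these 12 apart. With the signs of set 2 turned Rdh12 lay at 0.0015 (adjusted p = 0.995), and 7 of the 21 genes were called, which is 33.3% against 28.1% of all genes tested.

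Rlbp1 is shared with the pigment epithelium, and Rdh12 with photoreceptors, so marker lists of other cells were set beside them. Rod markers had a median mean ratio of 0.32 over 15 measured genes, with means from -0.10 to 0.83. The 1 called was the highest, Rp1, a protein of rod outer segments, at 0.83 ± 0.57. The list mean of rods was positive on 8 of 8 arrays, from 0.05 to 0.66. Cone markers had a median of 0.24 over 9 genes, with means from -0.08 to 0.54, and list means per array from 0.11 to 0.33. The 1 called was the highest, the cone transducin gene Gnat2 at 0.54 ± 0.21. The rod and cone list means thus lay on the same side as Rlbp1 on all 8 arrays, although Rp1 itself was at -0.02 on array 40. Pigment epithelium markers had a median of 0.03 over 9 genes, and Rlbp1 was the called one. Bipolar cell markers had a median of 0.04 over 9 genes, with Otx2 (0.49 ± 0.21), a transcription factor, and Trpm1 (0.42 ± 0.16), the channel of ON bipolar cells, called. No probe of either was called singly. The lowest of this list was Pcp2 at -0.37 ± 0.30, negative on 8 of 8 arrays and not called by limma (adjusted p = 0.106). The bipolar list mean was positive on 5 of 8 arrays, from -0.06 to 0.20. Ganglion cell markers had a median on the opposite side, -0.13 over 20 genes, but their means ran from -0.64 to 0.15. The called ones were Thy1 at -0.30 ± 0.11 and Slc17a6 at -0.64 ± 0.38. The ganglion cell list mean was negative on 8 of 8 arrays (-0.33 to -0.03). Horizontal cell markers had a median of -0.07 over 6 genes with 1 called, the receptor gene Ret at -0.37 ± 0.14, whose 5 probes had means from -0.96 to 0.013 and which was not called on the median of its probes (-0.22, adjusted p = 0.173), and amacrine and oligodendrocyte markers had medians of 0.08 and -0.0044 with 0 called by limma. Of these called markers, Gnat2 and Otx2 kept their call without any 1 array, Trpm1 lost it without array 70 (0.053), Thy1 lost it in all 8 such fits (0.0528 to 0.105), and Rp1, Slc17a6 and Ret lost it in several, with adjusted p up to 0.117, 0.0804 and 0.0626. Without arrays 41 and 42, where 57 of all genes were called, all 7 were lost (0.065 to 0.17). None of the 7 was called with signs turned. In that reading 3 of 15 rod markers were called, 2 of 9 cone, 2 of 9 bipolar, 4 of 13 amacrine and 7 of 20 ganglion cell markers. The rod, cone and ganglion cell list means, which kept their side on all 8 arrays as deposited, changed side between the sets in it. The medians and list means above are thus those of the deposited reading. Of the remaining lists, 7 of 18 endothelial, 5 of 12 oligodendrocyte, 3 of 9 pigment epithelium and 0 of 20 microglia and 0 of 6 horizontal cell markers were called by limma with signs turned, against 28.1% of all genes. The part of other cell types in the Rlbp1 result was not tested.

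**Figure D2:**
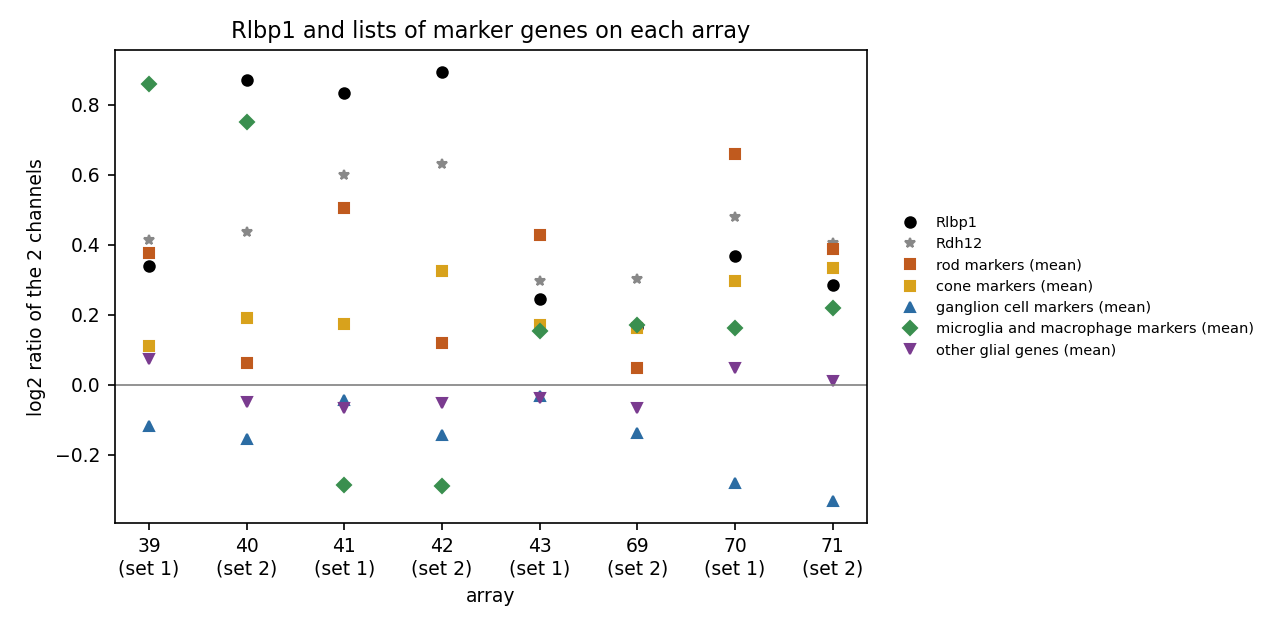
Log2 ratio of Rlbp1 and of the retinol dehydrogenase gene Rdh12, and the mean log2 ratio of marker lists, on each of the 8 arrays. Rlbp1 is highest on arrays 40, 41 and 42, while the rod mean is at 0.064 on array 40, 0.51 on 41 and 0.12 on 42; microglia and macrophage markers are highest on arrays 39 and 40 and lowest on 41 and 42.

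The rod list mean was 0.38 on array 39, 0.064 on 40, 0.51 on 41, 0.12 on 42, 0.43 on 43, 0.049 on 69, 0.66 on 70 and 0.39 on 71. Of the 3 arrays with the highest Rlbp1 ratio, array 41 had the rod mean next below that of array 70, and arrays 40 and 42 were among the 3 lowest. By set, the rod mean was 0.49 ± 0.12 in set 1 and 0.15 ± 0.16 in set 2 (SD, n = 4 arrays each), with 0.39 on array 71 just above the lowest array of set 1. On arrays 40, 41 and 42 the cone list mean was 0.19, 0.17 and 0.33. Microglia and macrophage markers, with a median of 0.19 over 20 genes and 0 called, had list means of 0.86 and 0.75 on arrays 39 and 40, of -0.29 on both 41 and 42, and from 0.15 to 0.22 on the other 4. The part of these cells in the Rlbp1 value of single arrays was not tested.

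Glul and the glutamate transporters form the next group. Glul encodes glutamine synthetase, which turns glutamate and ammonia into glutamine in Müller glia. Its ratio was 0.23 on array 39, -0.47 on 40, 0.89 on 41, 0.03 on 42, 0.71 on 43, -0.25 on 69, 0.65 on 70 and -0.08 on 71. The 4 arrays of set 1 all lay above the 4 of set 2. Its mean was 0.21 ± 0.49 as deposited (SD, n = 8, adjusted p = 0.684, 95% interval from -0.13 to 0.55), with 0.62 ± 0.28 in set 1 and -0.19 ± 0.22 in set 2. The deposited mean was 0.12 without array 41, 0.14 without array 43 and 0.33 without arrays 39 and 40, and it did not pass in any of these. With the signs of set 2 turned it was called at 0.41 ± 0.33 (limma adjusted p = 0.0179). In that reading 28.1% of all genes tested were called, 4161 of 14801, with 13.6% on the positive side and 14.5% on the negative side, and 2 of the 10 glial genes were, Glul and Sox9.

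The 3 Glul probes did not behave alike. Probe 3 ranged from 0.77 to 1.44 in set 1 and from -0.70 to -0.29 in set 2, a difference of 1.63 between the set means. Probe 1 had set means of 0.55 and 0.04, and probe 2 of 0.20 and -0.11, with overlapping values. The separation of the sets in the Glul mean thus came mostly from probe 3. Probes 1 and 3 carry the same source record in the probe table.

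Slc1a3 (GLAST) is the main glutamate transporter of Müller glia, and Slc1a2 (GLT-1) is a glutamate transporter of astrocytes in the brain and, in the retina, of cones and bipolar cells. The Slc1a3 ratio ran from -0.26 to 0.45 with a median of 0.048, positive on 5 of 8 arrays. Its mean was 0.048 ± 0.25 (adjusted p = 0.931, 95% interval from -0.15 to 0.25), and with signs turned 0.090 (adjusted p = 0.433). The values lay on both sides of 0 in each set.

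Slc1a2 was positive on 7 of 8 arrays, from -0.10 on array 39 to 0.39 on 71, with a median of 0.23. Its mean was 0.20 ± 0.15 (SD, n = 8), which did not pass over all genes (adjusted p = 0.2, 95% interval from 0.05 to 0.35). The average hid a difference between its 2 probes, which come from different source records. Probe 2 was positive on 8 of 8 arrays, from 0.15 to 0.67, with a mean of 0.41 ± 0.21, and was called when probes were tested singly (limma adjusted p = 0.0369). Probe 1 had a mean of -0.01 ± 0.27 and followed the sets, from -0.35 to -0.06 in set 1 and from 0.09 to 0.34 in set 2. Among 23373 probes tested singly, 496 were called, which is 2.12%, and of the 19 glial probes 2 were, that of Rlbp1 and probe 2 of Slc1a2.

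RefSeq lists 2 starts of Slc1a2 with separate windows, shown because its 2 probes differ. No table used here ties a probe to a start. Both windows are on the plus strand of GRCr8, at chr3:109459859-109460108 and chr3:109507697-109507946, and no ACAAAG or ACAATG occurs in either, so neither has capitals.
Slc1a2 window 1: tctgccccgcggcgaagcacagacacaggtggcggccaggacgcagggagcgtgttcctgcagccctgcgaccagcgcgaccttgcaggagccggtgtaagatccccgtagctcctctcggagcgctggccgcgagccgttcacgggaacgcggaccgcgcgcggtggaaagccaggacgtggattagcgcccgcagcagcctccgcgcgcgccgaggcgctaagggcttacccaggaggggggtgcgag
Slc1a2 window 2: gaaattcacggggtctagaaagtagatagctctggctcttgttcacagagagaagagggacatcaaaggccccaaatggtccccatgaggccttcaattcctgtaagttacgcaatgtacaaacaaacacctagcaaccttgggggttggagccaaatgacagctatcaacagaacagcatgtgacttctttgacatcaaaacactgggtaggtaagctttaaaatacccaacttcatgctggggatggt
The first window has 71.2% G or C and the second 45.6%, against 50.8% in the Rlbp1 window.

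Of 25 other measured genes for glutamate uptake and glutamine handling, 0 were called by limma, with a median mean ratio of 0.02. The largest means were those of Got1, a cytosolic aspartate aminotransferase, at 0.58 ± 0.65 (adjusted p = 0.209) and Gls2, a glutaminase, at -0.51 ± 0.69 (adjusted p = 0.313). Got1 stood at 1.40 and 1.68 on arrays 41 and 42 and between -0.13 and 0.68 on the other 6, and its mean without those 2 arrays was 0.25. The Gls2 mean was -0.33 without them. With the signs of set 2 turned, 6 of the 25 were called, which is 24.0% against 28.1% of all genes.

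**Figure D3:**
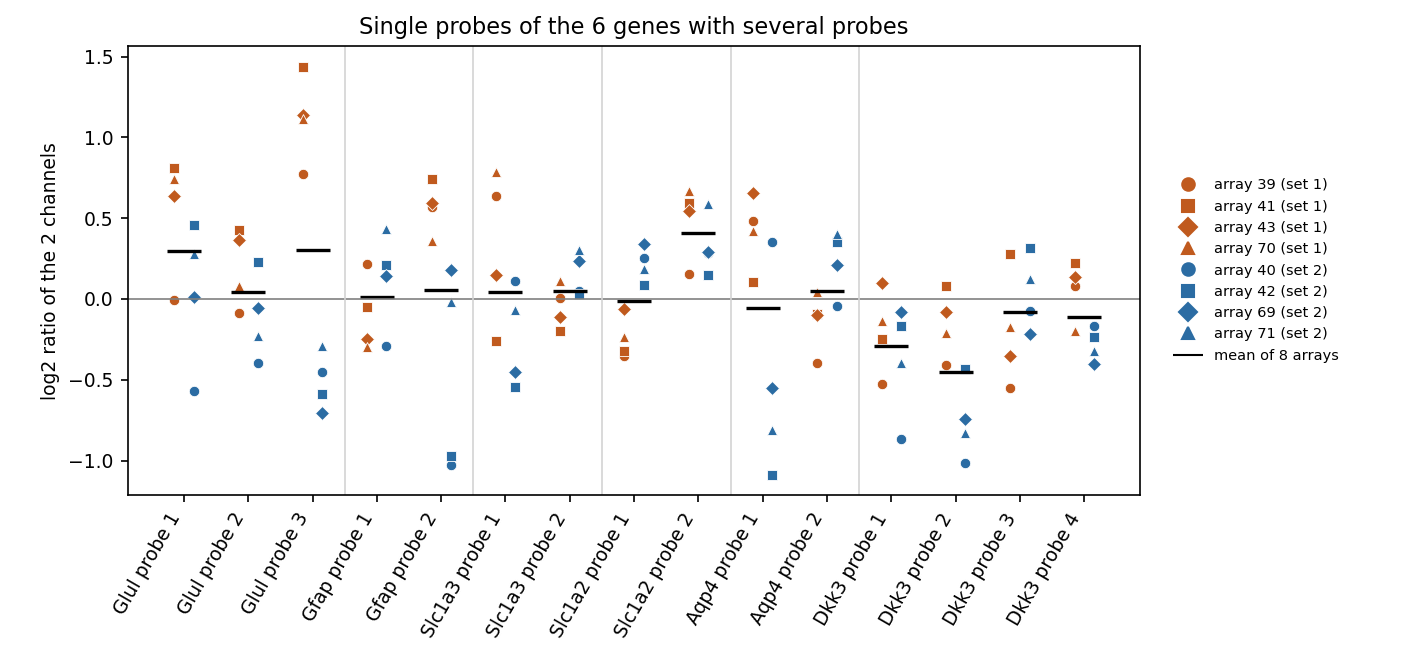
Log2 ratio of each of the 15 probes of the 6 glial genes that have several probes. Points are single arrays, orange for set 1 and blue for set 2, and black bars are means of 8 arrays. Probe 3 of Glul, probe 2 of Gfap and probe 2 of Dkk3 lie higher in set 1, while probe 1 of Slc1a2 lies higher in set 2; probe 2 of Slc1a2 is above 0 on every array.

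Kcnj10 and Aqp4 serve potassium and water. Kcnj10 encodes Kir4.1, the inwardly rectifying channel through which Müller glia siphon potassium. Its ratio was -0.28 on array 39, -1.24 on 40, -0.81 on 41, 0.51 on 42, -0.12 on 43, -0.12 on 69, -0.01 on 70 and 0.37 on 71. It was negative on 6 of 8 arrays and had the lowest single value of any of the 10 genes, on array 40. Its mean of -0.21 ± 0.58 did not pass (adjusted p = 0.745), and its 95% interval, from -0.60 to 0.18, is among the widest of the 10. Array 40 carried much of it, since the mean was -0.066 without that array and -0.030 when array 39 was left out as well (adjusted p = 0.957 and 0.981). With signs turned it was -0.091 (adjusted p = 0.752).

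Aqp4 encodes the water channel of Müller and astrocyte endfeet. Its ratio ran from -0.37 to 0.28 with a median of 0.025, and its mean was -0.0035 ± 0.23 (95% interval from -0.19 to 0.18, adjusted p = 0.995). Its 2 probes differed in how they followed the sets. Probe 1 had means of 0.41 in set 1 and -0.53 in set 2, and probe 2 of -0.13 and 0.23. The probes thus leaned opposite ways, and with signs turned the gene mean was 0.14 (adjusted p = 0.119).

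Of 26 measured partners in potassium and water handling, 1 was called, on the negative side, and the median mean ratio was -0.03. It was Agrn, which encodes the basement membrane proteoglycan agrin that binds dystroglycan, at -0.79 ± 0.44 (adjusted p = 0.0172), negative on 8 of 8 arrays. Without array 70 the adjusted p of Agrn was 0.0585, and without arrays 41 and 42 it was 0.116. With signs turned Agrn was at 0.28 (adjusted p = 0.475). Kcnj16, the Kir5.1 partner of Kir4.1, at 0.14 ± 0.16, Dag1, which encodes dystroglycan, at -0.17 ± 0.12, and Aqp1, another water channel, at 0.07 ± 0.43 did not pass as deposited. With signs turned Aqp1 was called at 0.40 (limma adjusted p = 0.000754), among 8 of the 26 genes, which is 30.8%. These 3 were picked for their link to Kcnj10 and Aqp4 with their values in view.

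Gfap and Vim encode the intermediate filament proteins of glia, GFAP and vimentin. The Gfap ratio ran from -0.66 on array 40 to 0.39 on 39 with a median of 0.17, and was positive on 6 of 8 arrays. Its mean was 0.034 ± 0.37 (adjusted p = 0.968, 95% interval from -0.23 to 0.30), and with signs turned 0.20 (adjusted p = 0.154). Gfap probe 2 ranged from 0.36 to 0.74 in set 1 and from -1.03 to 0.18 in set 2, while the values of probe 1 overlapped, from -0.30 to 0.22 and from -0.29 to 0.43.

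Vim ran from -0.44 on array 39 and -0.17 on 40 to 0.29 on 71, with a median of 0.14, and arrays 39 and 40 were the only negative ones. Its mean was 0.062 ± 0.25 (adjusted p = 0.898), and without arrays 39 and 40 it was 0.19 (adjusted p = 0.199). Among 15 other intermediate filament and linker genes, 1 was called on the positive side and 0 on the negative, with a median mean ratio of -0.06. The called gene was Des, which encodes desmin, a filament protein of muscle and of some mural cells, at 0.37 ± 0.20 (adjusted p = 0.0377) and positive on 8 of 8 arrays. Without 1 array the Des call was kept only when array 41 was left out (adjusted p from 0.0357 to 0.109). With signs turned Des lay at 0.013 (adjusted p = 0.955), and 4 of the 15 were called, which is 26.7%. Endothelial and pericyte markers had a median of -0.01 over 18 genes and 0 called, and their part in the Des value was not tested.

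Genes that rise in reactive glia were read beside Gfap and Vim. Of 36 measured, 0 were called, with a median mean ratio of -0.01. The largest means were those of Ccl2, a monocyte chemokine, at 0.42 ± 0.76 (adjusted p = 0.53) and S100a10, an annexin partner, at -0.41 ± 0.59 (adjusted p = 0.362). The 3 probes of Ccl2 had means from -0.06 to 1.01. With signs turned Ccl2 was called at 0.60 (limma adjusted p = 0.0385). Of the 36 genes, 10 were called in that reading, which is 27.8%.

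Dkk3 encodes a secreted glycoprotein of the Dickkopf family, and Sox9 a transcription factor that Müller glia keep from the progenitor stage. Dkk3 was negative on 7 of 8 arrays, from -0.53 on array 40 to 0.08 on 41, with a median of -0.27. Its mean of -0.23 ± 0.20 was the lowest of the 10 genes, did not pass over all genes (adjusted p = 0.189, 95% interval from -0.41 to -0.06), and lay at 0.11 with signs turned (adjusted p = 0.432). All 4 Dkk3 probes had a negative mean, from -0.45 to -0.08. Probe 2 ranged from -0.41 to 0.08 in set 1 and from -1.01 to -0.43 in set 2, without overlap. Of 19 other secreted Wnt modulators and their receptors 0 were called, with a median of 0.02 and the largest means for Sost, a Wnt inhibitor, at 0.44 ± 0.69 (adjusted p = 0.411) and Rspo3, a Wnt enhancer, at -0.35 ± 0.30 (adjusted p = 0.125). The Sost mean was 0.24 without array 39. With signs turned 3 of the 19 were called, which is 15.8%.

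Sox9 followed the sets more sharply than any other of the 10 genes. Its ratio was -0.65 on array 39, -0.49 on 41, -0.65 on 43 and -0.42 on 70, and 0.40 on 40, 0.63 on 42, 0.69 on 69 and 0.53 on 71. Every array of set 1 was negative and every array of set 2 positive, with means of -0.55 ± 0.12 and 0.56 ± 0.12 (SD, n = 4 arrays each). As deposited the mean was 0.0052 ± 0.60 (adjusted p = 0.996, 95% interval from -0.40 to 0.41). With the signs of set 2 turned it was -0.56 ± 0.11, a 1.47-fold difference (limma adjusted p = 0.000328). Glul and Sox9 were the 2 of 10 genes whose sets did not overlap, against 35% of all genes with 8 values. Sox9 also had every array of one set on the opposite side of 0 from the other, which 20.1% of those genes did. Tested in set 1 alone, Rlbp1, Glul and Sox9 were called, where 19.7% of all genes were, and in set 2 alone Sox9 was, where 14.2% were. In the turned reading Glul and Sox9 lay on opposite sides, Glul positive and Sox9 negative. Whether these 2 follow the dye or the fraction was not tested. Sox9 was measured by 1 probe.

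Among 32 other Sox genes and glial or progenitor transcription regulators, 1 was called, on the negative side, with a median mean ratio of 0.05. It was Notch1, the receptor whose signal favours the Müller fate, at -0.55 ± 0.34 (adjusted p = 0.0317), negative on 7 of 8 arrays with 0.02 on array 41. The Notch1 call was kept without array 41 or 42 and lost without any 1 of the other 6 (adjusted p from 0.0274 to 0.0915), and with signs turned Notch1 lay at 0.038. Sox2 at 0.16 ± 0.38 and Sox8 at 0.05 ± 0.22, picked with their values in view as Sox genes of Müller glia, did not pass. With signs turned 7 of the 32 were called, all on the negative side, which is 21.9%.

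**Figure D4:**
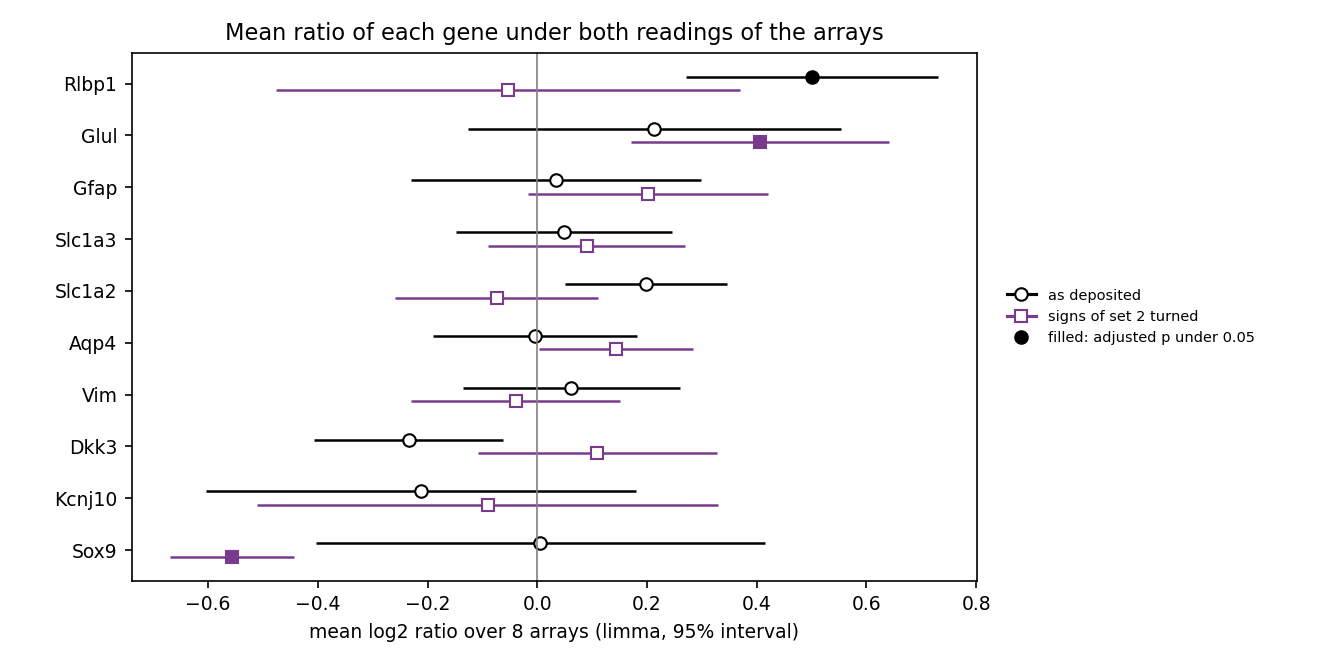
Mean log2 ratio over 8 arrays for each of the 10 glial genes, with the limma 95% interval, as deposited (black circles) and with the signs of set 2 turned (purple squares). Filled symbols have an adjusted p under 0.05: Rlbp1 as deposited, and Glul and Sox9 with signs turned.

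A wider list of Müller glia and astrocyte genes gave no common side. Of its 45 measured genes, 21 had a positive and 24 a negative mean, the median was -0.01, and the called gene was Notch1. The list mean per array ran from -0.07 to 0.07. Aldh1l1, a folate enzyme used as an astrocyte marker, lay at -0.14 ± 0.08, Gja1, which encodes connexin 43, at -0.15 ± 0.42, Apoe, the apolipoprotein made by Müller glia, at -0.10 ± 0.65, and S100b, an astrocyte calcium-binding protein, at -0.01 ± 0.34, and none passed as deposited. With signs turned Gja1 was called at 0.36 (limma adjusted p = 0.0118). These 4, all with negative means, were picked as common glial markers with their values in view. The highest means of the list were those of Acsl6, an acyl-CoA synthetase, at 0.43 ± 0.29 (positive on 7 of 8 arrays, adjusted p = 0.0583), Aldh1a1, a retinaldehyde dehydrogenase, at 0.24 ± 0.16 (8 of 8), and Nfia, a transcription factor of glial development, at 0.22 ± 0.23 (7 of 8), and none of these passed. With signs turned 9 of the 45 were called, which is 20.0%, 6 on the positive and 3 on the negative side. Over this list and the pathway lists together, 4 of 202 distinct genes were called as deposited, Notch1, Rdh12, Agrn and Des, which is 1.98%, near the 2.19% of all genes.

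The 10 genes did not move as a block from array to array. The median over them ran from -0.05 on array 40 to 0.25 on 71, while that of all genes ran from -0.07 to 0.04, and between 5 and 7 of the 10 were positive on any array. Of the 45 pairs among them, 23 correlated positively and 22 negatively over the 8 arrays, with a median r of 0.002. The median SD over arrays was 0.28 for the 10 genes and 0.28 for all genes. A correlation over these arrays also carries the difference between the sets, and no test was made on it.

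Likeness of array patterns was measured by Pearson's r over the 8 arrays among 14665 genes with 8 values. Genes with a provisional name (LOC, RGD, MGC or a clone name) were then left out, so closest means closest among the rest. Every one of the 10 had at least 3 such genes at r = 0.938 or above. With 8 values and so many genes searched, r of this size can arise by chance, and no test was made on it. Closest to Rlbp1 were Wdr55, Tm2d1 and Trappc4 (r from 0.938 to 0.942). Closest to Sox9 were Vwce, Polr2e and Tbc1d9 (r from 0.995 to 0.996), which shared its change of side between the sets. With the set means removed the same genes had r from 0.938 to 0.957 with Rlbp1 and from 0.841 to 0.933 with Sox9. Closest to Glul were Giot1, Slc20a1 and Snap91 (0.989 to 0.991), to Gfap Mrps10, Pyurf and Borcs7 (0.940 to 0.975), and to Vim Kcnj14, Bin2a and Rab22a (0.979 to 0.991). Closest to Slc1a3 were Pop4, Tmem116 and Bloc1s1 (0.951 to 0.996), and to Slc1a2 Fzd4, Or8b56 and Or7g18 (0.947 to 0.958). Closest to Aqp4 were Kdm3b, Pola1 and Usp18 (0.942 to 0.967), to Dkk3 Sf3a3, Trim2 and Gadd45a (0.983 to 0.992), and to Kcnj10 Fa2h, Vps28 and Crb2 (0.949 to 0.958). None of the 10 was among the closest 3 of another.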

How the data were processed

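Expression was measured on 8 two-colour arrays, per the labels. The authors deposited a value table that holds a log2 ratio of the 2 channels for 41048 probes per array. The base was worked out from the values: of 88 spacings between common values, 69 matched a log2 of a ratio of small whole numbers, 20 a log10 and 2 a natural log. Array medians lay between -0.08 and 0.03. The labels give neither direction, background correction nor normalization, and scanner files were not used.

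Values of a size above 15 (73) or exactly 0 (574) were set to missing. Probes were named by the platform's table, with symbols updated through RefSeq gene identifiers (1 changed). Of the probes, 23374 had 1 symbol, 48 several and 17626 none. A gene is the mean of its probes and needed 6 arrays. An intercept model was fitted to all genes in limma 3.58.1 (R 4.3.3), two-sided, with Benjamini-Hochberg adjustment over all genes and a threshold of 0.05. All 8 arrays entered singly. The p-values measure the spread between arrays, which in this model includes any difference between the sets. They are too small where arrays share a biological replicate, and rest on 8 arrays, whose number limits the precision. Simulated data had independent noise on each array and kept each gene's observed difference between the sets. On them the fit called 52% of 100 genes with a true log2 ratio of 0.5 and 93% of 100 genes at 1. It made 4 false calls. A gene that did not pass may therefore still differ. Figures were drawn with matplotlib 3.10.9.

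The 10 glial genes and all gene lists were chosen with earlier results of these data known. Besides the 10, up to 4 called genes of each companion list are named by rule (the 2 of largest mean where none was called), and up to 2 called genes of each marker list. The 3 most alike genes of each of the 10, provisional names left out, are named too. Further genes of the lists, most of them marked as picked with their values in view, are named outside this rule. They were not in the outlier check or the checks on processing. Alternatives were other centring, scaling, masking, probe summaries and filters, the sets of arrays, neighbouring arrays as one sample, and arrays left out. Neighbouring arrays were 39 with 40, 41 with 42, 43 with 69 and 70 with 71, and the labels do not say that these are one sample. Each such pair holds an array of set 1 and an array of set 2. Averaging thus mixes the sets, and the correlation within blocks also carries the difference between them.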

Additional observations from a re-analysis of the deposited data

Results flagged for a closer look

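Of 46 series of 8 array values examined, those of the named genes and of the 19 single glial probes, 1 held an array far from the others by Dixon's gap test at its 95% limit. Sost stood at 1.90 on array 39, while the other 7 arrays lay between -0.24 and 0.77. About 1 in 20 such series is picked out by chance.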

How the results depend on the processing

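Over all genes, 324 calls became 928 with the set as a covariate, 523 with neighbouring arrays as a random block (consensus correlation -0.18), 4161 with the signs of set 2 turned, 2913 in set 1 alone, 2096 in set 2 alone, 496 over single probes, 57 without arrays 41 and 42, and 134 to 330 without 1 array. Limma on averages of neighbouring arrays called 0 (1928 at an unadjusted p under 0.05), as did the exact sign-flip test (1834). Of the 10 glial genes, 1 called became 2 with signs turned, 3 in set 1 alone, 2 by single probes, 0 without arrays 39 and 40, 0 without 41 and 42, 0 for averages, 0 by sign flips and 0 to 1 without 1 array.

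These changed side, none of them called unless stated. With signs turned: Rlbp1 -0.054, Slc1a2 -0.074, Aqp4 0.14, Vim -0.039, Dkk3 0.11, Sox9 -0.56 (called), Notch1 0.038, Got1 -0.14, Gls2 0.48, Agrn 0.28, Rspo3 0.072, S100a10 0.37, Slc17a6 0.27 and Thy1 0.055. In set 1 alone: Aqp4 0.14 and Sox9 -0.55 (called). In set 2 alone: Glul -0.19, Gfap -0.17, Slc1a3 -0.042 and Ccl2 -0.18. Aqp4 was 0.0035 after centring, 0.0066 after scaling and 0.055 without arrays 41 and 42, Sox9 -0.017 without 41 and 42, and Slc1a3 -0.0023 without 39 and 40. Without 1 array, Gfap ran from -0.018 to 0.13, Slc1a3 from -0.0086 to 0.092, Aqp4 from -0.044 to 0.048 and Sox9 from -0.092 to 0.099. The causes were not tested. The number of arrays limits the precision. No paired analysis was possible because the arrays form 1 group, with no other group to share replicate numbers; the averaged and blocked fits join neighbouring arrays within it.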
